A study of Mus musculus with 2 samples.

Results

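The NRF2, glutathione and antioxidant genes are 36 genes chosen by symbol: the regulator pair Nfe2l2 and Keap1, 3 inducible target genes often read as reporters of NRF2 activity, and the enzymes and carriers of the glutathione, thioredoxin, peroxiredoxin, superoxide dismutase and catalase systems. All 36 were found among the 23183 genes of the deposited table, each as 1 row. Of these, 33 had a mean of at least 1 FPKM (fragments per kilobase of transcript, scaled to the total of the library) over both libraries and counted as measured. Gpx2, Gsta3 and Gstt1 were under that floor. RNA came from neonatal mouse epidermis, as 1 library of genotype C57BL/6 Foxn1L19M/L19M, which carries the L19M allele on both copies of Foxn1 (here L19M), and 1 library of genotype C57BL/6 WT. Foxn1 encodes a forkhead transcription factor of skin and thymus epithelium, and the labels name no promoter or recombinase that would confine the allele to 1 cell type. How many pups each library pools, of which sex and day of age, the sources used here do not give. With 1 library per genotype, no difference has a replicate check and no test was possible.

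NRF2, encoded by Nfe2l2, is a transcription factor that KEAP1 holds in the cytoplasm and hands to a ubiquitin ligase. Oxidants and electrophiles modify KEAP1, NRF2 then accumulates, pairs with small MAF proteins and binds antioxidant response elements near genes of glutathione synthesis, conjugation and peroxide removal. In epidermis these genes guard keratinocytes against ultraviolet light and reactive chemicals, and mouse epidermis with forced NRF2 activity thickens its cornified layer.

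The core of the antioxidant response element, TGACNNNGC, was searched on both strands in the RefSeq promoters (GRCm38.p6, 250 bases before to 50 bases after each start site) because the element is what links these genes as a group. Promoters were at hand for 31 of the 36 genes, and not for Gclc, Gsr, Gsta4, Hmox1 or Prdx6. A gene counted once if any of its listed promoters held the letters. The core was found for 9 of the 31 (29.0%), against 17.0% of 9008 measured genes with a promoter. With the fourth base left free (TGANNNNGC, which includes the first pattern) it was found for 16 of the 31 (51.6%), against 48.2% of measured genes. An AP-1 site (TGANTCA) was found for 5 of the 31 (16.1%), against 6.56% of measured genes. Each TGACNNNGC match is given here with 10 bases on either side, 5′ to 3′ on the strand that reads TGAC, with the core in capitals.
Gsta3 (chr1:21240454-21240482, plus strand): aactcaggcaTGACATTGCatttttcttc
Nfe2l2 (chr2:75704885-75704913, minus strand): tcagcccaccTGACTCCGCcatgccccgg
Srxn1 (chr2:152105542-152105570, minus strand): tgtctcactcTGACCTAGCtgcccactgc
Gstm5 (chr3:107895802-107895830, plus strand): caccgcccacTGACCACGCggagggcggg
Gclm (chr3:122245413-122245441, minus strand): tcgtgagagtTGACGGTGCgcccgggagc
Prdx1 (chr4:116685456-116685484, minus strand): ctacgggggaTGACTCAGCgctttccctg
Mgst1 (chr6:138140461-138140489, minus strand): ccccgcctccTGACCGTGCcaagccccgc
Txnrd1 (chr10:82859104-82859132, minus strand): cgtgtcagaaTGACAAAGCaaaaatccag
Sod1 (chr16:90220696-90220724, minus strand): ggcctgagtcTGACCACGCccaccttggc
The Prdx1 core is the 1 of these 9 whose letters also hold an AP-1 site, and the Srxn1 core lies 28 bases past the start site. The Txnrd1 core lies at a start site inside the gene. The transcript listed with the Txnrd1 FPKM begins upstream of it, at chr10:82833951. A match is a stretch of letters, not a bound site, and no match says only that the letters are not in this window. The 250 bases before the start sites of Gstm5 and Mgst1 are given whole because these are the genes past 1.5-fold lower in L19M, with the core in capitals.
Gstm5 (chr3:107895604-107895853, plus strand): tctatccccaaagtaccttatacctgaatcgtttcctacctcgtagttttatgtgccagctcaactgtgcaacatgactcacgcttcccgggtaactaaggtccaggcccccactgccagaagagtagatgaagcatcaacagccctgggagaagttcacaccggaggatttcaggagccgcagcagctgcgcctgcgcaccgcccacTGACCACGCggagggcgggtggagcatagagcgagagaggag
Mgst1 (chr6:138140277-138140526, plus strand): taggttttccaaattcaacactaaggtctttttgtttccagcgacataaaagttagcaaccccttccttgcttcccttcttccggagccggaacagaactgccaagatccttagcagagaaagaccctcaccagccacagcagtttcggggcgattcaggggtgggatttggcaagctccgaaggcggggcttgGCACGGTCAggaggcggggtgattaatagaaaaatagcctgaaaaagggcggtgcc
Both cores lie close to the start site, beginning at -42 for Gstm5 and, on the opposite strand, at -56 for Mgst1. Among the 8 measured genes with a core, 3 had a log2 ratio of L19M over WT above 0 and 5 below, with a median of -0.17. Among the 20 measured genes with a promoter and no core the split was 10 and 10, with a median of -0.04. The genes with a core ran from -0.64 for Gstm5 to 0.50 for Srxn1, so those carrying the core did not share 1 direction.

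Depth was estimated at 19207306 fragments for L19M and 14122803 for WT, and FPKM was above 0 for 16670 genes in L19M and 16481 in WT. The defining keratinocyte genes of a list of 10, such as Krt14, Krt5, Krt1 and Krt10, were all measured in both libraries, with a summed level of 32875 FPKM in L19M and 34908 FPKM in WT. Foxn1 had 5.44 FPKM in L19M and 3.74 FPKM in WT, and since the label points to a changed amino acid, its RNA level is no check of the genotype. Intervals given here are 95% and cover counting error only. In bulk tissue, fewer cells of a type and less RNA per cell cannot be told apart.

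None of the 33 measured genes was 2-fold apart on the log2 scale with 1 FPKM added, on which a low level understates the difference. Over all 11841 measured genes, 0.532% were at least 2-fold higher and 1.71% at least 2-fold lower in L19M, and both calls are therefore rare in the data as a whole. At 1.5-fold, Gsta4 alone was higher (1 of 33, 3.03%, against 1.99% of all measured genes), and Gstm5 and Mgst1 were lower (2 of 33, 6.06%, against 4.07%). Those shares are near the background. The median log2 ratio of the 33 genes was -0.04, with quartiles of -0.26 and 0.10, and that of all measured genes was 0.0049, with quartiles of -0.17 and 0.16. Summed over all 36 genes, FPKM came to 3695 in L19M and 3865 in WT, a ratio of 0.956. Over all genes of the table the ratio of summed FPKM was 0.960. Summed by family, with genes outside the 36 included, the ratio was 0.709 for Mgst, 0.792 for Gsta and 0.816 for Gstm. It was 0.998 for Gpx and 1.41 for Gsto. The picture is one of antioxidant gene RNA at close to the same total in both libraries, with differences inside gene families and between some of them.

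**Figure D1:**
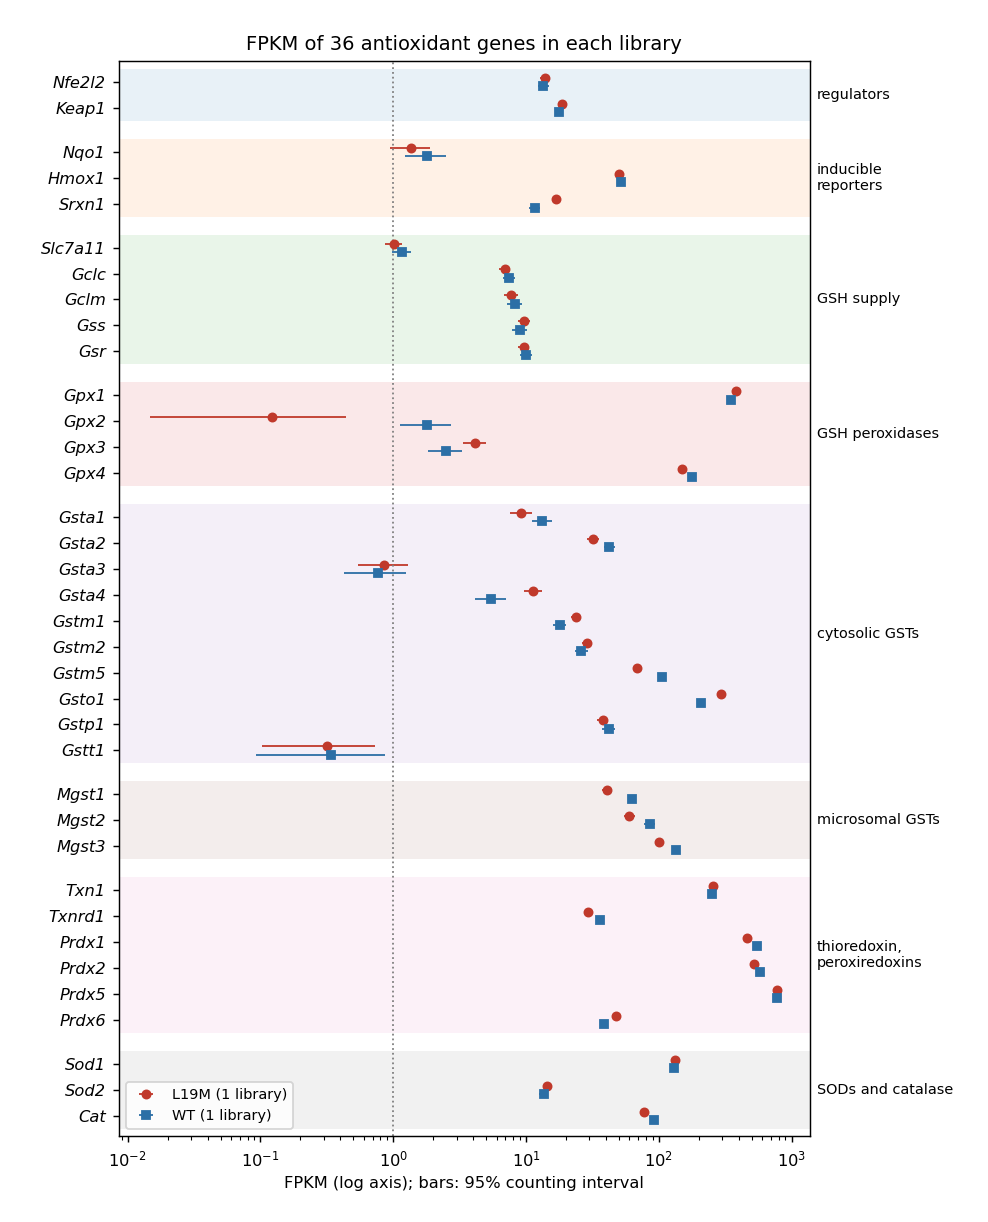
FPKM of each of the 36 genes (log axis) in the L19M library (circles) and the WT library (squares), with 95% counting intervals and grouped by role. The dotted line marks 1 FPKM. Most pairs nearly coincide, from Slc7a11 to Prdx5, and Gpx2 is the pair that lies furthest apart.

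The regulators were at like levels in both libraries. Nfe2l2 had 13.8 FPKM in L19M and 13.5 FPKM in WT, an FPKM ratio of 1.02 with an interval of 0.899 to 1.16. Keap1 had 18.8 FPKM in L19M and 17.6 FPKM in WT, a ratio of 1.07 (0.983 to 1.16). Both intervals include equality. NRF2 is controlled mainly through its protein, so its RNA level does not measure its activity.

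Of the 3 inducible genes, Srxn1 was higher in L19M, and Hmox1 and Nqo1 were not distinguishable between the libraries by counting. Srxn1, which encodes sulfiredoxin, the enzyme that repairs over-oxidized peroxiredoxins, had 16.9 FPKM in L19M and 11.7 FPKM in WT, a ratio of 1.45 (1.29 to 1.63). Hmox1, the heme-cleaving heme oxygenase, had 50.3 FPKM in L19M and 51.8 FPKM in WT, a ratio of 0.972 (0.895 to 1.06). Nqo1, a quinone reductase and a standard NRF2 target, was low in both, at 1.36 FPKM in L19M and 1.78 FPKM in WT. With 35 and 34 estimated fragments its ratio of 0.761 had an interval of 0.461 to 1.26. Of the 3 genes only Srxn1, with a log2 ratio of 0.50, therefore differed beyond counting. The log2 ratios of Hmox1 (-0.04) and Nqo1 (-0.24) give no direction, since their intervals include equality.

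Glutathione supply differed little between the libraries, and none of its 5 genes had an interval that excluded equality. Slc7a11, the cystine carrier that brings in the limiting building block, had 1.01 FPKM in L19M and 1.16 FPKM in WT. Gclc and Gclm encode the catalytic and the modifier subunit of glutamate-cysteine ligase, the rate-limiting step. Gclc had 6.89 FPKM in L19M and 7.48 FPKM in WT, a ratio of 0.922 (0.797 to 1.07). Gclm had 7.69 FPKM in L19M and 8.21 FPKM in WT, a ratio of 0.936 (0.780 to 1.12). The levels of both subunits were thus alike in each library. Gss, which completes glutathione, had 9.66 FPKM in L19M and 8.94 FPKM in WT. Gsr, which reduces oxidized glutathione, had 9.62 FPKM in L19M and 9.94 FPKM in WT. Log2 ratios of the 5 genes lay between -0.10 and 0.10.

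The glutathione peroxidases split by gene. Gpx1, the cytosolic enzyme, made up most of the RNA of this group, at 380 FPKM in L19M and 348 FPKM in WT, a ratio of 1.09 (1.05 to 1.13). Gpx4, which reduces lipid hydroperoxides in membranes, had 150 FPKM in L19M and 177 FPKM in WT, a ratio of 0.848 (0.809 to 0.888). Of its 50-base words (all stretches of 50 bases in its longest GENCODE transcript) 61.7% also occur in a processed copy, Gpx4-ps2, so part of its value may belong there. Gpx3, the secreted peroxidase of plasma and extracellular fluid, had 4.10 FPKM in L19M and 2.48 FPKM in WT, a ratio of 1.66 (1.16 to 2.40) from 103 and 46 estimated fragments. Its log2 ratio with the added 1 FPKM was 0.55, just short of 1.5-fold. Markers of vessels and connective tissue, where this gene is also made, were higher in L19M too. All 6 endothelial genes had log2 ratios above 0, with summed levels of 21.8 FPKM in L19M and 13.6 FPKM in WT, and 7 of 8 fibroblast genes did, with summed levels of 1215 FPKM in L19M and 996 FPKM in WT. No gene of either list was at 0, and their part in the Gpx3 value was not tested.

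Gpx2, a peroxidase best known from the lining of the gut and other epithelia, was nearly missing from the L19M library. It had 0.122 FPKM in L19M (interval 0.0147 to 0.439) and 1.81 FPKM in WT (1.13 to 2.73), from 2 and 22 estimated fragments. The ratio was 0.0673 with an interval of 0.00767 to 0.274. This is the widest gap among the 36 genes, and it sits under the floor of 1 FPKM, so it is in none of the counts above. Its log2 ratio was -1.32, and 1.24% of measured genes had a lower one. Of the 50-base words of Gpx2, 5.74% also occur in the copy Gpx2-ps1. That share is over a transcript of 3165 bases, longer than the 1067 bases listed with its FPKM. Markers of other epithelial compartments were lower in L19M as well. All 11 genes of a hair shaft and inner root sheath list were at least 2-fold lower, against 1.71% of all measured genes. Their summed levels were 137 FPKM in L19M and 798 FPKM in WT. In a sebocyte list 7 of 11 measured genes were at least 2-fold lower (63.6%, against 1.71% of all measured genes). Its summed levels over 12 genes were 53.8 FPKM in L19M and 129 FPKM in WT, with no gene listed at 0 in either library. The part of those cells in the Gpx2 value was not tested.

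**Figure D2:**
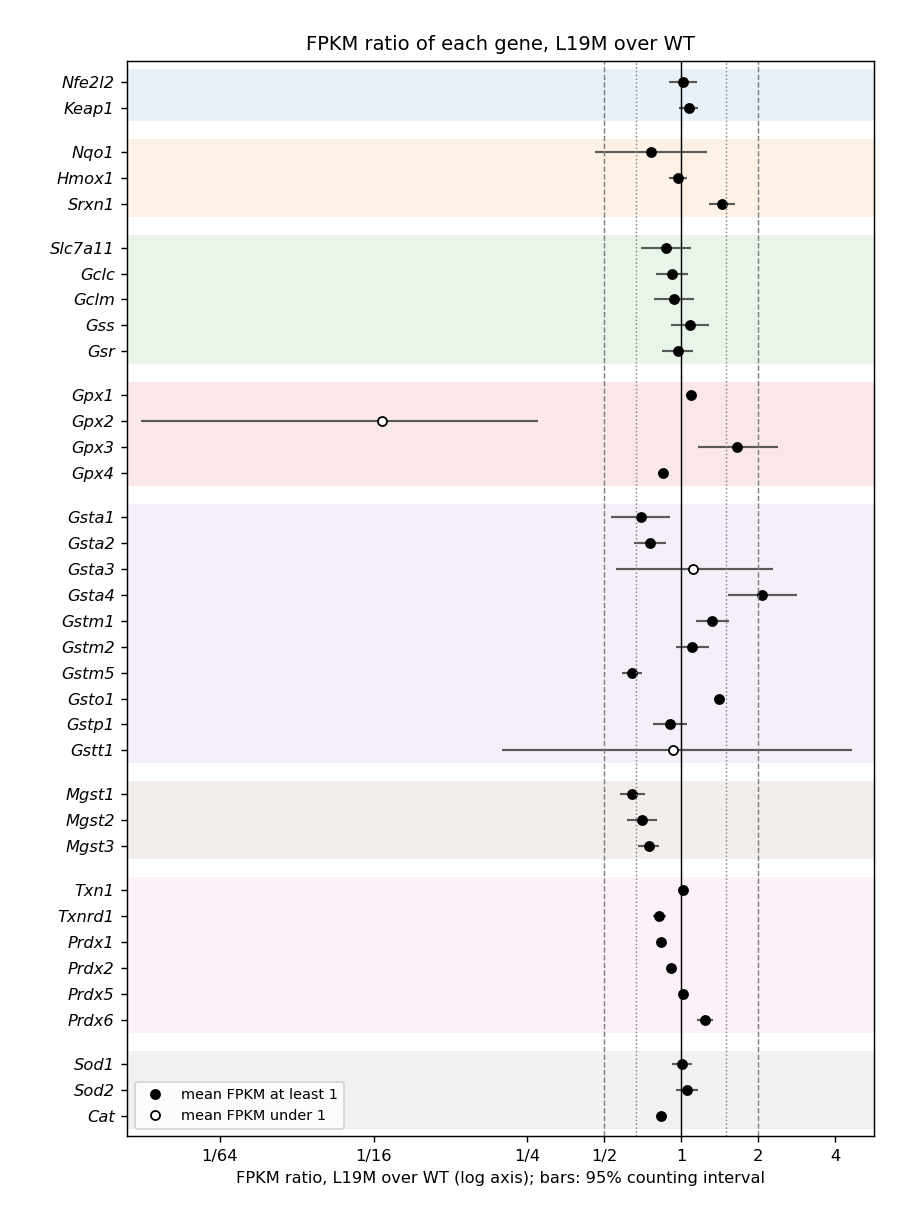
FPKM ratio of L19M over WT for each gene (log axis) with its 95% counting interval, in the order of the plot of levels. Filled points have a mean of at least 1 FPKM and open points less, and dotted and dashed lines mark 1.5-fold and 2-fold. Gsta4 at 2.07 and Gpx2 at 0.0673 are the highest and the lowest ratio.

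Cytosolic glutathione transferases, which attach glutathione to reactive carbon compounds, held the highest and the lowest log2 ratio of the 33 measured genes. Gsta4, which conjugates hydroxynonenal, a breakdown product of oxidized lipids, had 11.3 FPKM in L19M (interval 9.61 to 13.2) and 5.45 FPKM in WT (4.13 to 7.03). Its FPKM ratio was 2.07 (1.52 to 2.84), and its log2 ratio with the added 1 FPKM was 0.93. Of all measured genes, 99.4% had a lower one. None of its 50-base words occurs in another gene. Gstm5, a class mu transferase, had 68.0 FPKM in L19M (63.6 to 72.5) and 106 FPKM in WT (100 to 113). Its ratio was 0.639 (0.585 to 0.699), with a log2 ratio of -0.64. It shares no 50-base word with another gene either. The hair shaft and sebocyte lists were lower in L19M as well, by the summed levels given with Gpx2, and their part in the Gstm5 value was not tested. Gsto1, the omega class enzyme that also reduces dehydroascorbate, was the most abundant transferase, at 292 FPKM in L19M and 208 FPKM in WT, a ratio of 1.41 (1.34 to 1.47). Gstp1, the class pi enzyme, had 37.7 FPKM in L19M and 41.8 FPKM in WT, a ratio of 0.902 (0.776 to 1.05), and shares 62.3% of its 50-base words with Gstp2. Gstt1 had 0.315 FPKM in L19M and 0.340 FPKM in WT, and Gsta3 had 0.849 FPKM in L19M and 0.763 FPKM in WT, both too low to compare at this depth.

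Within the alpha class cluster on chromosome 9, neighbours lay on opposite sides of equality. Gsta4 (chr9:78191966-78209349, mm10) was higher in L19M, as given above. Gsta1 (chr9:78230669-78242683) had 9.21 FPKM in L19M and 13.3 FPKM in WT, a ratio of 0.694 (0.533 to 0.902). Gsta2 (chr9:78331020-78347145) had 32.0 FPKM in L19M and 42.5 FPKM in WT, a ratio of 0.753 (0.653 to 0.868). Singly these values are uncertain, since 89.7% of the 50-base words of Gsta1 and 64.2% of those of Gsta2 occur in other genes. The closest copy of Gsta1, with 82.9% of its words, is the gene Gm3776 of the same cluster, at 9.89 FPKM in L19M and 18.6 FPKM in WT. Summed over Gsta1, Gsta2, Gm3776 and Gm10639, FPKM was 52.4 in L19M and 75.3 in WT, a ratio of 0.696. The listed lengths run from 855 to 874 bases, so this sum depends little on how fragments were divided among these 4 genes. Fragments shared with genes outside the 4 could still move it, since words of Gsta2 occur in 5 other genes. Gsta4 thus made up 17.5% of the alpha class FPKM in L19M and 6.68% in WT.

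The mu class cluster on chromosome 3 showed a like split. Gstm5 (chr3:107895854-107898685) lies at its one end and was lower in L19M. Gstm1 (chr3:108012250-108017973) had 23.7 FPKM in L19M and 17.9 FPKM in WT, a ratio of 1.32 (1.14 to 1.54). Gstm2 (chr3:107981702-107986436) had 28.8 FPKM in L19M and 26.1 FPKM in WT, a ratio of 1.10 (0.954 to 1.28). Of their 50-base words 23.1% and 9.36% occur in other genes. Gstm6, of the same cluster, had 3.37 FPKM in L19M and 1.49 FPKM in WT, a ratio of 2.26 (1.34 to 3.95) from 61 and 20 estimated fragments. Gstm5 was the most abundant mu gene in both libraries, with 53.8% of the cluster's FPKM in L19M and 68.6% in WT.

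**Figure D3:**
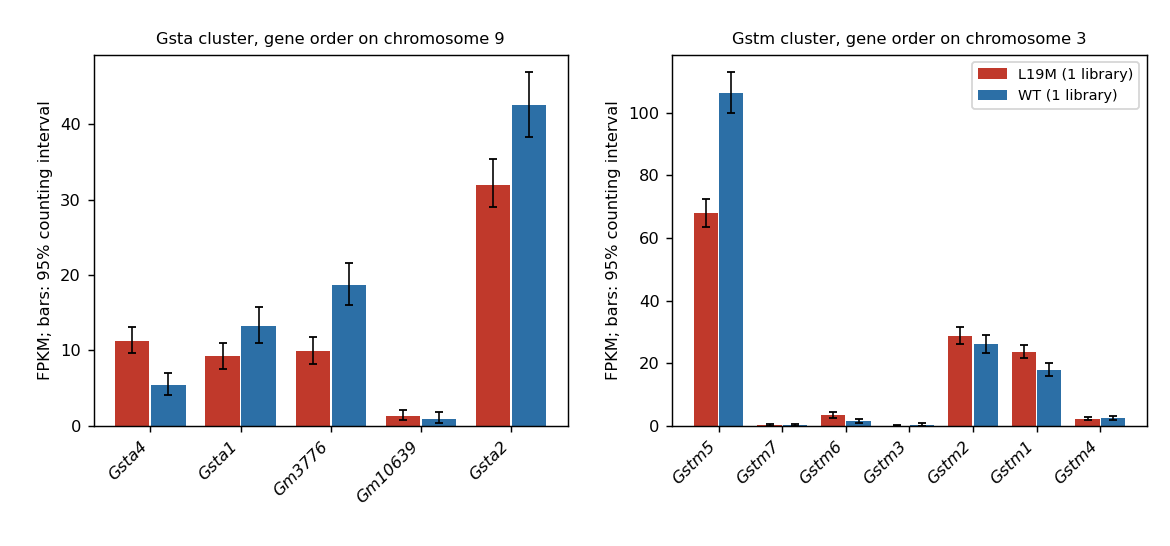
FPKM of the alpha class genes (left, chromosome 9) and the mu class genes (right, chromosome 3) in chromosomal order, with the L19M bar left of the WT bar and 95% counting intervals. In the alpha cluster Gsta4 is higher in L19M while Gsta1, Gm3776 and Gsta2 are lower, and in the mu cluster Gstm5 is lower while Gstm1 is higher.

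All 3 microsomal glutathione transferases, membrane enzymes that act on lipid peroxides and, for Mgst2 and Mgst3, on leukotriene precursors, were lower in L19M. Mgst1 had 40.5 FPKM in L19M and 62.8 FPKM in WT, a ratio of 0.644 (0.575 to 0.721). Mgst2 had 59.8 FPKM in L19M and 85.1 FPKM in WT, a ratio of 0.702 (0.614 to 0.802). Mgst3 had 99.6 FPKM in L19M and 134 FPKM in WT, a ratio of 0.745 (0.675 to 0.822). The 3 genes lie on different chromosomes and share no 50-base word with any other gene, and their intervals all stayed below 1. Mgst1 was past 1.5-fold on the log2 scale (-0.62), and Mgst2 (-0.50) and Mgst3 (-0.42) were not. Their summed level was 199.8 FPKM in L19M and 282 FPKM in WT, a ratio of 0.709. The sebocyte list given beside Gpx2 was lower in L19M too. Of 10 measured adipocyte genes 4 were at least 2-fold lower (40%, against 1.71% of all measured genes). Summed levels over 11 adipocyte genes were 326 FPKM in L19M and 432 FPKM in WT. Among the adipocyte genes Lep was listed at 0 in L19M. The part of those cells in the Mgst values was not tested.

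The 6 thioredoxin and peroxiredoxin genes had the highest summed level of the role groups, 2097 FPKM in L19M and 2223 FPKM in WT, and their ratios lay between 0.820 and 1.24. Prdx1, Prdx2 and Prdx5, thiol peroxidases that remove hydrogen peroxide, together held 47.8% of the FPKM of the 36 genes in L19M and 49.1% in WT. Prdx5 had 782 FPKM in L19M and 773 FPKM in WT, a ratio of 1.01 (0.976 to 1.05), and ranked 145 in L19M and 149 in WT among all genes. Its RNA was thus abundant and level between the libraries, and the other peroxiredoxins were less even. Prdx2 had 524 FPKM in L19M and 575 FPKM in WT, a ratio of 0.911 (0.881 to 0.943). Prdx1 had 460 FPKM in L19M and 550 FPKM in WT, a ratio of 0.835 (0.812 to 0.858). Prdx6, which uses glutathione in place of thioredoxin, had 47.6 FPKM in L19M and 38.4 FPKM in WT, a ratio of 1.24 (1.16 to 1.33). It was the peroxiredoxin of the 36 genes with the highest ratio, and the least abundant. Txn1, the cytosolic thioredoxin, had 255 FPKM in L19M and 251 FPKM in WT, a ratio of 1.02 (0.970 to 1.07). Txnrd1, the selenoenzyme that recharges it, had 29.4 FPKM in L19M and 35.8 FPKM in WT, a ratio of 0.820 (0.772 to 0.872).

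Superoxide dismutases, which turn superoxide into hydrogen peroxide, had ratios close to 1, and catalase was lower in L19M. Sod1, the cytosolic copper and zinc enzyme, had 132 FPKM in L19M and 131 FPKM in WT, a ratio of 1.01 (0.921 to 1.11). Sod2, the mitochondrial manganese enzyme and also a gene of NF-kappaB signalling, had 14.3 FPKM in L19M and 13.5 FPKM in WT, a ratio of 1.05 (0.956 to 1.16). Cat, the peroxisomal catalase, had 77.1 FPKM in L19M and 92.3 FPKM in WT, a ratio of 0.836 (0.796 to 0.877). Its ratio was close to that of Prdx1.

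Over the 33 measured genes, 18 had a counting interval off 1, against 47.4% of 11789 measured genes. For 7 genes the interval lay above 1 (23.1% of measured genes) and for 11 below it (24.3%). Nearly as many of all measured genes lie off 1 as on it, and an interval off 1 says that 2 libraries differ beyond counting, not that the genotypes do.

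**Figure D4:**
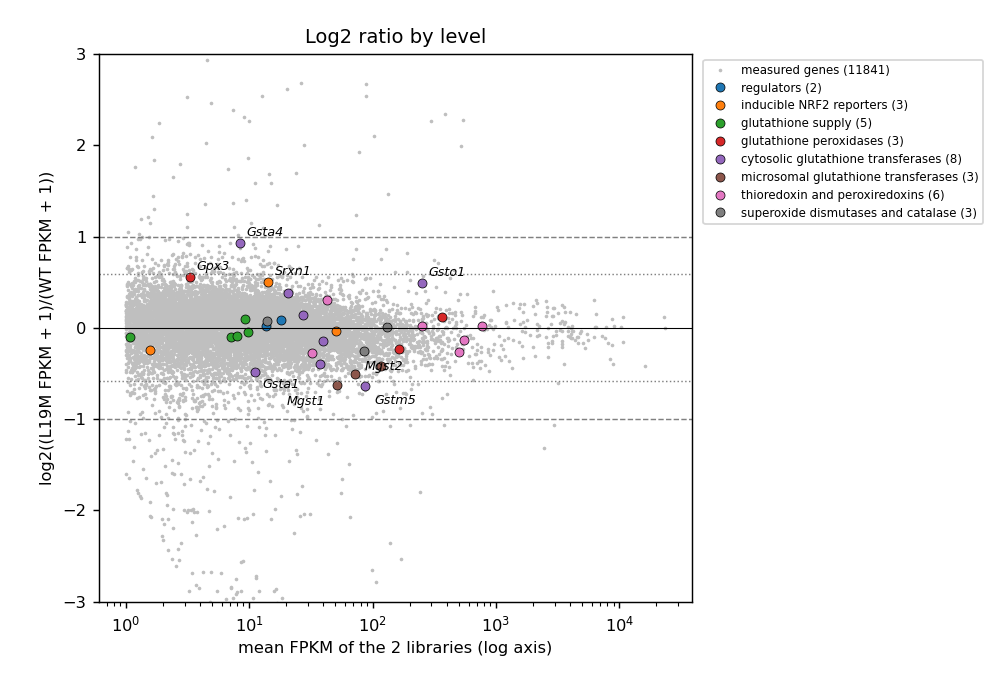
Log2 ratio of L19M over WT with 1 FPKM added, against the mean FPKM of the 2 libraries (log axis), for 11841 measured genes (grey) and the 33 measured antioxidant genes (coloured by role). Dotted and dashed lines mark 1.5-fold and 2-fold, and 34 genes lie beyond the axis at an absolute log2 ratio of 3. The coloured points lie inside the 2-fold lines at all levels, with Gsta4 closest to one of them.

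Genes that work beside these 36 were read from lists of related functions, and most of those lists were also centred near equality. Fold calls in all lists used the log2 scale with 1 FPKM added. A low gene can therefore have an FPKM ratio past a fold without being called. Among 14 partners, competitors and degradation factors of NRF2 none was 2-fold apart on that scale, and the median log2 ratio was -0.02. Nfe2, a related factor of blood cells, had 1.63 FPKM in L19M and 3.60 FPKM in WT, a ratio of 0.452 (0.339 to 0.599). Nfe2l3, a relative of Nfe2l2, had 13.9 FPKM in L19M and 21.2 FPKM in WT, a ratio of 0.654 (0.586 to 0.730). Bach1, which competes with NRF2 for its elements and holds Hmox1 down, had 15.1 FPKM in L19M and 11.2 FPKM in WT, a ratio of 1.34 (1.24 to 1.46). So the repressor of Hmox1 had the higher value in L19M while Hmox1 itself was near equal.

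Among 22 measured genes of detoxification and conjugation none was 2-fold apart on the log2 scale with 1 FPKM added. The median log2 ratio was -0.004. At 1.5-fold 1 was higher (4.55%, against 1.99% of all measured genes) and 3 were lower (13.6%, against 4.07%). Aldh3a1, an aldehyde dehydrogenase of cornea and other barrier epithelia, had 0.977 FPKM in L19M and 2.90 FPKM in WT, a ratio of 0.337 (0.203 to 0.544). Akr1b8, an aldo-keto reductase, had 7.33 FPKM in L19M and 3.93 FPKM in WT, a ratio of 1.87 (1.38 to 2.56). Ptgr1, a reductase of prostaglandins and reactive aldehydes, had 96.1 FPKM in L19M and 160 FPKM in WT, a ratio of 0.600 (0.574 to 0.628). Known NRF2 targets of this list thus lay on both sides of equality here.

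Of 23 measured glutathione genes outside the 36, none was 2-fold apart on the log2 scale with 1 FPKM added. The median log2 ratio was -0.05. At 1.5-fold 4 were higher (17.4%, against 1.99% of all measured genes) and 1 was lower (4.35%, against 4.07%). The higher ones were Gstm6, Gstp2, Gstt2 and Ptges. Gstm6, Gstp2 and Gstt2 rested on 20, 9 and 13 estimated fragments in WT, and they dropped out at a mean of at least 5 FPKM. Ptges stayed, with a ratio of 1.66 (1.51 to 1.83), and the ratio of Gstt2 was 2.16 (1.13 to 4.42). Furthest from equality were Gstm6, with a log2 ratio of 0.81, the mitochondrial and peroxisomal transferase Gstk1, at -0.75, and Gstp2, at 0.69. Gstk1 had 11.4 FPKM in L19M and 19.9 FPKM in WT, a ratio of 0.574 (0.464 to 0.710). Gstp2 had 26 and 9 estimated fragments, and its ratio of 2.15 had an interval of 0.975 to 5.21. Of the 50-base words of Gstp2, 72.6% occur in other genes and 64.3% in the far more abundant Gstp1. Part of the Gstp2 value may therefore belong to Gstp1. Of 21 thioredoxin and peroxide genes outside the 36, none was 2-fold apart on that scale, and the median was -0.04. Sod3, the extracellular superoxide dismutase, had 12.7 FPKM in L19M and 7.80 FPKM in WT, a ratio of 1.62 (1.37 to 1.92). Prdx4, the peroxiredoxin of the secretory pathway, had 28.1 FPKM in L19M and 43.3 FPKM in WT, a ratio of 0.650 (0.568 to 0.743). Txnip, which binds and blocks thioredoxin, had 221 FPKM in L19M and 167 FPKM in WT, a ratio of 1.32 (1.28 to 1.36). The secreted enzymes Sod3 and Gpx3 had higher values in L19M, with ratios of 1.62 and 1.66. Their cytosolic relatives Sod1 and Gpx1 had ratios of 1.01 and 1.09. Prdx4 of the secretory pathway went the other way, at 0.650, so Sod3 and Gpx3 do not stand for a class. As with Gpx3, the part of vessel and connective tissue cells in the Sod3 value was not tested.

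NADPH supply feeds both the glutathione and the thioredoxin reductase. Among its 12 genes none was 1.5-fold apart on the log2 scale with 1 FPKM added, and the median was -0.01. Furthest from 0 were the log2 ratios of Aldh1l1 (0.42), Pgls (-0.27) and Tkt (-0.21). Among 13 genes of iron and heme handling 1 was at least 2-fold lower (7.69%, against 1.71% of all measured genes) and none 2-fold higher. That gene, Tfrc, the transferrin receptor that takes up iron, had 8.36 FPKM in L19M and 18.97 FPKM in WT, a ratio of 0.441 (0.402 to 0.483). Fth1, a subunit of the iron store ferritin, had 579 FPKM in L19M and 449 FPKM in WT, a ratio of 1.29 (1.26 to 1.32). Slc40a1, the iron exporter ferroportin, had 24.4 FPKM in L19M and 33.1 FPKM in WT, a ratio of 0.738 (0.686 to 0.793). The uptake receptor was lower and the storage subunit higher in L19M. Tfrc is also abundant in red cell precursors, and the summed level of 7 erythroid genes was 28.1 FPKM in L19M and 33.7 FPKM in WT. Of the 7, 5 were under the floor. The 2 measured genes had log2 ratios below 0, and only 1 of them had a counting interval off 1. Epb4.2 was listed at 0 in both libraries. The part of red cell precursors in the Tfrc value was not tested.

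Among 12 measured genes of cystine, cysteine and the stress factor ATF4 none was 1.5-fold apart, and the median log2 ratio was -0.03. Furthest from 0 were the log2 ratios of Ddit3 (-0.47), Ddit4 (0.35) and Asns (-0.28). The oxidant-producing enzymes had a median of 0.17, with 9 of 10 measured genes above 0, against 6014 of 11841 measured genes in all. Only 3 of the 10 had a counting interval off 1, all above it, against 47.4% of all measured genes with an interval off 1. At 1.5-fold 2 of the 10 were higher and none lower, against 1.99% and 4.07% of all measured genes. Ncf1, a subunit of the phagocyte oxidase, had 3.81 FPKM in L19M and 2.13 FPKM in WT, a ratio of 1.79 (1.40 to 2.30). Xdh, xanthine dehydrogenase, had 15.98 FPKM in L19M and 10.1 FPKM in WT, a ratio of 1.58 (1.43 to 1.73). Nox1, an epithelial oxidase, had 2.23 FPKM in L19M and 1.26 FPKM in WT, a ratio of 1.77 (1.23 to 2.61). Cybb, the phagocyte oxidase core, had a log2 ratio of 0.03, and Mpo of neutrophils was listed at 0 in both libraries. In a list of neutrophil and macrophage genes 2 of 8 measured were at least 2-fold higher in L19M, against 0.532% of all measured genes. They were S100a8 and S100a9, which keratinocytes also make. Of the 8, 6 had log2 ratios above 0 and 2 below. Counting intervals lay above 1 for 4 and below 1 for 1, and Csf3r was under the floor. The summed level of its 9 genes, S100a8 and S100a9 included, was 347 FPKM in L19M and 81.2 FPKM in WT. The part of neutrophils and macrophages in these values was not tested.

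The last list held 4 genes described in mouse epidermis with forced NRF2 activity. In L19M 3 of them were at least 2-fold higher (75%, against 0.532% of all measured genes). Sprr2d, a cornified envelope protein gene, had 244 FPKM in L19M and 28.6 FPKM in WT, a ratio of 8.52 (7.35 to 9.93). Slpi, a secreted protease inhibitor, had 13.1 FPKM in L19M and 1.69 FPKM in WT, a ratio of 7.74 (4.63 to 13.9). Sprr2h had 196 FPKM in L19M and 70.1 FPKM in WT, a ratio of 2.79 (2.54 to 3.08), and Epgn, a growth factor of the EGF family, had 3.52 FPKM in L19M and 3.11 FPKM in WT. The list was put together with the high values of Sprr2d and Slpi in these libraries already known, so its count is no evidence on NRF2, and both genes also belong to the general wound and inflammation response of skin. Sprr2 genes are near-identical to one another, so their single values are uncertain.

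**Figure D5:**
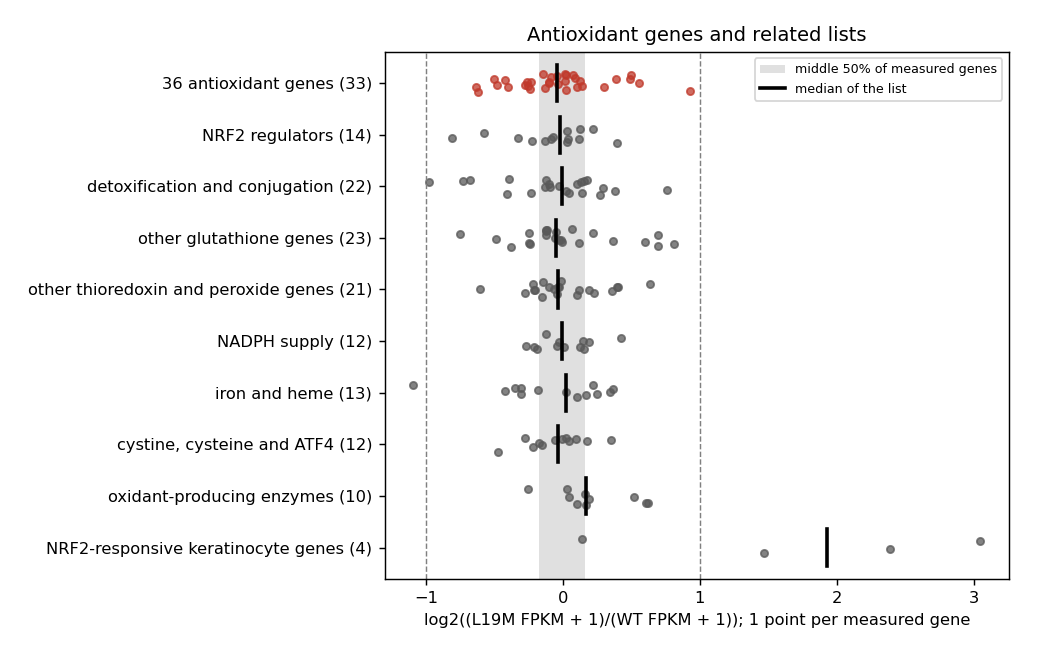
Log2 ratio of L19M over WT with 1 FPKM added for each measured gene of the 36 antioxidant genes (top) and of 9 related lists, with the number measured in brackets. The grey band spans the middle 50% of all measured genes, black bars are list medians and dashed lines mark 2-fold. Medians lie between -0.05 and 0.17 for all lists except the NRF2-responsive keratinocyte genes.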

How the data were processed

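Poly(A)-selected, strand-marking RNA-seq libraries were made from TRIzol-extracted epidermal RNA, per the labels' protocols, 1 for L19M and 1 for WT. The deposited table gives, per the file headers, raw-data FPKM for each library, normalized log2 values and a fold ratio of L19M over WT taken from those log2 values, all computed by the authors. The deposited log2 values were quantile-normalized per the information sheet and lay within 0.0476 of log2(FPKM + 1). Build mm10 is named on the sheet, GRCm39 and mm39 in the submitters' processing notes, which also name Cufflinks, edgeR and R 3.5.1 with no role. Coordinates are printed as the table has them, as mm10. The sources used here give neither an aligner nor the treatment of fragments shared between genes.

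For each gene log2((FPKM in L19M + 1)/(FPKM in WT + 1)) was computed. A mean of at least 1 FPKM over both libraries made a gene measured, and it was called at 2-fold or 1.5-fold on that scale. The planned design had no test, since each genotype has 1 library. FPKM values of transcripts of at least 1000 bases stepped as whole fragments, which gave the depth of each library: 83.5% of values up to 20 fragments in L19M and 84.0% in WT were whole to within 0.1. Fragments per gene, estimated from the 1 listed transcript length for transcripts of at least 300 bases, gave exact Poisson intervals for levels and Clopper-Pearson intervals for ratios. They are approximate for genes with isoforms of different length, and PCR copies are not separate molecules. The smallest detectable level for a transcript of 2000 bases (3 fragments) was 0.0873 FPKM in L19M and 0.118 FPKM in WT. The call rule was tested on simulated data. Shared sequence was counted as words of 50 bases found in transcripts of other genes in GENCODE M21, a length chosen without knowledge of the read length. The words were those of the longest GENCODE transcript of each gene. It can differ in length from the transcript listed with the FPKM, as for Gpx2, Sod1 and Mgst2, and shares are approximate there. Python 3.11.15, numpy 2.4.6, scipy 1.17.1 and pandas 2.3.3 were used.

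The 36 genes and the 9 related and 8 marker lists were chosen with earlier results of these data known. Named from each related list were members past 2-fold and the 3 measured genes with the largest absolute log2 ratio. Cybb, Mpo, Epgn, Gm3776, Gm10639, Gstt2, Ptges and the marker genes cited were named after their values were seen. Of 229 list entries 4 had no row under their symbol and were not used here, and 1 further erythroid marker is not reported here. No protein sequences were used here, so the planned protein comparison was replaced by shared words.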

Additional observations from a re-analysis of the deposited data

How the results depend on the processing

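No paired analysis was possible because each genotype has 1 library, and for the same reason no library could be left out. A pseudocount of 0.1 FPKM added Gsta4 as the 1 gene at least 2-fold higher in L19M and Gpx3 to the 1.5-fold higher genes (2 in place of 1), against 1.01% and 3.65% of all measured genes under that setting. Without a filter on low values Gpx2 became the 1 gene at least 2-fold lower, against 0.966% of all 23183 genes. In the related lists together (131 measured genes), the pseudocount of 0.1 gave 6 genes at least 2-fold higher, against 1.01% of all measured genes. It gave 3 lower, against 2.51%. With 1 FPKM there were 3 higher, against 0.532%, and 1 lower, against 1.71%. Those 3 were Slpi, Sprr2d and Sprr2h, all from the list put together with high values already known. A mean of at least 5 FPKM (102 measured genes) gave 7 genes at least 1.5-fold higher, against 1.45%, in place of 11, against 1.99%. The authors' normalized values and centring on the median of all measured genes moved no count beyond 1.5 times, and no sign of a log2 ratio of the 36 genes turned under any of the 3 settings tried on single genes. The median of the 36 genes stayed between -0.05 and -0.01, with -0.01 found without the 5 measured genes that share over 20% of their words with another gene (chosen after seeing the data). That choice left the same genes at 1.5-fold: Gsta4, Gstm5 and Mgst1. Depth limits Gpx2, Gsta3, Gstt1 and Nqo1 most, with 2 to 35 estimated fragments in L19M and 4 to 34 in WT.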
